A study of Homo sapiens with 6 samples.

Results

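The DNA repair genes described here were 54 human genes, taken by symbol from 4 groups of repair factors: 11 genes of the Fanconi anemia pathway, 21 of excision and mismatch repair, 17 of double-strand break repair by recombination or end joining, and 5 RecQ helicases. All introns and exons of these genes that were listed with a mean of at least 20 junction reads per library were kept, with no regard to how they moved. This gave 115 introns in 30 genes, of 12867 introns in all genes, and 920 exon entries for 760 exons in 50 genes, of 101163 entries in all genes. FANCF had no exon entry. No intron was listed for ERCC4, ERCC6, FANCC, FANCF, MRE11, MSH3, MSH6, NBN, PALB2, UNG, XPA, XRCC2, XRCC4 or XRCC5.

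RNA came from HEK293A-TOA cells, 1 line of human embryonic kidney origin that had been transfected with siRNA. In 3 biological replicates the siRNA had no target (siNT), and in the other 3 a mixture of siRNAs at 40 nM was directed against SFSWAP (siSFSWAP), a splicing factor of the SR-related family, with RNA taken after 5 days in both groups. Each library is called a, b or c within its group, in the order in which it was listed, and whether libraries of the same letter in different groups belong together is not known. Reads that crossed exon junctions or exon-intron boundaries numbered 2767079 to 7465949 per library over all listed introns and 19515010 to 55274283 over all listed exons, where a read may count for more than 1 event. The siNT library a was the deepest, and its values lay nearest to those of siSFSWAP. Over the tested introns of the repair genes, median inclusion was 13.1%, 16.2% and 20% in siNT libraries a, b and c, against 10.5%, 11.9% and 10.4% in siSFSWAP. For that reason the counts below are also given without siNT library a. Because that library was chosen for its values, leaving it out is bound to widen most differences. Results without it are therefore a description and no added support. SFSWAP itself had a summed exon junction count of 82.1 ± 3.78 CPM, reads scaled to 1 common total per library, in siNT and 30.2 ± 7.70 in siSFSWAP (SD, n = 3), 36.8% of the siNT level (log2 fold change −1.46, SE 0.16, adjusted p = 0.000353, limma). VIM, KRT8 and KRT18, filament genes that this epithelial line is known to express, were present in every library, with VIM at 221 to 373 CPM. No values are given here for the other planned markers, NEFM, NEFL and PAX2 of the line and PTPRC, CD3E and ALB of other cell types. The identity of the line was thus not tested.

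DNA repair pathways recognise damaged or mispaired bases, crosslinks and broken ends, and pass them to nucleases, helicases, polymerases and ligases that restore the duplex. The Fanconi core complex is a ubiquitin ligase that marks the FANCD2-FANCI pair at interstrand crosslinks. Many genes of these pathways are split into numerous short exons, and a transcript that keeps an intron or skips an exon often cannot give the whole protein.

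Inclusion, in percent, is the share of the inclusion form among the inclusion and skipping forms of an entry. It is computed from junction reads after scaling each form by its effective length. Splicing at other sites is not counted, so a value need not be the share of all transcripts that hold the intron or exon. Changes are siSFSWAP minus siNT in percentage points. An event is called where the adjusted p, from a quasi-binomial test with the dispersion moderated across all events, was at most 0.05 and the mean inclusion moved by at least 0.2, that is 20 points. Tested events also needed at least 5 reads of each form.

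The splice sites of some called events are shown first, since the results below turn on where these introns and exons begin and end. They were read from GRCh38 on the strand of the gene, 5′ to 3′. Capitals mark the first or last 2 bases of the intron. The FANCA intron lies at chr16:89739290-89739477 on the minus strand, the RECQL5 intron at chr17:75628763-75628933 on the minus strand, the MSH5 intron at chr6:31753440-31753566 on the plus strand, ERCC1 exon 8 at chr19:45413963-45414034 with its longer form reaching to 45414399, both on the minus strand, and FANCL exon 4 at chr2:58226728-58226784 with a shorter form ending at 58226782, both on the minus strand. The paired ERCC1 and FANCL sites show the alternative starts of the same exon.
FANCA intron 40, 5′ end: cagGTacct
FANCA intron 40, 3′ end: cactatgtctttacctctAGtct
RECQL5 intron 16, 5′ end: aagGTaagg
RECQL5 intron 16, 3′ end: cctgctcttccctctaccAGcac
MSH5 intron 11, 5′ end: cctGTgagc
MSH5 intron 11, 3′ end: gtaaccttgtctgactgtAGctg
ERCC1 exon 8, start of the 72-nt form: cctgcctccaccctttccAGgtg
ERCC1 exon 8, start of the 437-nt form: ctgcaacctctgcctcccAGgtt
ERCC1 exon 8, end of both forms: ggaGTaagg
FANCL exon 4, start of the 57-nt form: ttggaaatattttgatctAGaga
FANCL exon 4, start of the 55-nt form: ggaaatattttgatctagAGaat
The 2 FANCL acceptors lie side by side, so that the shorter exon lacks the first 2 bases of the longer one.

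Introns of the repair genes were on balance less retained after SFSWAP knockdown, as were those of all genes. Inclusion was lower in siSFSWAP for 64.9% of the tested member introns and for 61.2% of all tested introns. Of the 94 member introns that could be tested, in 29 genes, 4 fell and none rose, 1 each in FANCA, RECQL4, RECQL5 and MSH5. Intron counts and medians here and below include overlapping forms of some introns, which share reads and are not independent. Over all genes 1.61% of 10155 tested introns were called lower and 0.148% higher, 1.75% in either direction. Before adjustment, 3 member introns had a p under 0.05 upwards and 21 downwards, and limma on the log2 odds gave 2 and 19 and called none. The 3 siNT and 3 siSFSWAP values did not overlap for 23 introns in the lower direction, against 15.3% of all introns, and for 6 in the higher direction, against 6.04%. The 23 were 24.5% of the members' introns. The median change was −2.39 points in the repair genes and −0.515 over all tested introns, and the repair introns started from a higher siNT median of 17.5% against 8.78%. Without siNT library a, 12 of 85 member introns were called lower, in FANCA, FANCG, RECQL4, MSH5 and RECQL5, and none higher, against 5.25% of all introns lower. Leaving out any other library left 1 or none called.

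FANCA, a subunit of the Fanconi core complex, had 9 tested intron entries, and inclusion was lower in siSFSWAP in all 9. They include overlapping forms of introns 24 and 41, so they are not 9 separate introns. Intron 40 of 42, a 188-nt intron near the 3′ end of the gene, was included at 13.1%, 39.4% and 42.9% in siNT and at 3.57%, 6.49% and 7.22% in siSFSWAP. All siSFSWAP libraries lay under the lowest siNT library, siNT a. The siNT mean was 31.8% ± 16.3 and the siSFSWAP mean 5.76% ± 1.93 (SD, n = 3), and inclusion fell by 26.02 points (adjusted p = 0.0353). The call was lost when any library but siNT a was left out, with changes of −35.4 to −20.5 points and an adjusted p of up to 0.302. The intron overlaps an exon of ZNF276 on the opposite strand, and since strandedness is not given, reads of the 2 genes cannot be told apart. The next intron, number 41, was at 29.2% in siNT and 11.6% in siSFSWAP, a difference of −17.6 points that did not pass the test (adjusted p = 0.0862). ZNF276 exons overlap introns 41 and 42 too, so the same limit holds for these FANCA entries.

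FANCG, which links FANCA to the rest of the core complex, showed the same direction without a call. Of its 10 tested intron entries 9 were lower in siSFSWAP, and the 10 include overlapping forms of intron 9. For intron 11 of 13 the siNT libraries were at 26.1%, 50% and 49.2% and the siSFSWAP libraries at 22.4%, 14.9% and 17.9%, so the groups did not overlap, but siNT a and siSFSWAP a were close. The difference was −23.3 points with an adjusted p of 0.110. Leaving out 1 library at a time gave −31.1 to −19.2 points, with an adjusted p of up to 0.369. The largest drop was without siNT library a, the library chosen for its values. Over FANCA, FANCG and FANCL together, the 3 core complex genes with tested introns, the median change of 26 entries, overlapping forms included, was −13.2 points. By gene the medians were −16.4 points in FANCA, −13.7 in FANCG and 0.345 in FANCL. The 7 introns of FANCD2 and FANCI, the pair that the core complex modifies, had a median change of 1.84 points, and 6 of them were higher in siSFSWAP. Their siNT median was 6.66% and their median GC content 32.5%, against 30.1% and 49.6% for the core complex introns.

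The RecQ helicases RECQL4 and RECQL5 unwind forks and recombination intermediates. RECQL4 had 10 tested intron entries, all lower in siSFSWAP, with a median of −7.35 points. They include overlapping forms of intron 14. Intron 6 of 20, 306 nt long at chr8:144515458-144515763, was included at 26.9%, 36.8% and 52.2% in siNT and at 11.4%, 11.6% and 9.09% in siSFSWAP. The groups were well apart, and inclusion fell by 27.9 points (adjusted p = 0.00841). That call was lost without siNT library b or any siSFSWAP library, where the adjusted p reached 0.101. Intron 13 passed the adjusted p at 0.0438 but not the size threshold, at 30.2% and 11.5%. It was the only other member intron past the adjusted p, which 3.22% of all introns passed. RECQL5 intron 16 of 19, 171 nt long, was included at 30.5%, 26.8% and 50% in siNT and at 11.1%, 17.02% and 10.4% in siSFSWAP. Every siSFSWAP library was lower than every siNT library, and the drop was 22.9 points (adjusted p = 0.0410). It was no longer called when any library but siNT a was removed, with changes of −27.4 to −15.8 points and an adjusted p of up to 0.255.

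MSH5 is a MutS homologue that acts in meiotic recombination. Intron 11 of 24, 127 nt long, had the largest drop among the called introns, at 29.7%, 63.6% and 60.0% in siNT and 9.33%, 15.8% and 6.67% in siSFSWAP. The lowest siNT library was again siNT a. The drop was 40.5 points (adjusted p = 0.0331) on a mean of 31.2 reads per library, and it was not called when any library but siNT a was removed (adjusted p of up to 0.223).

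**Figure D1:**
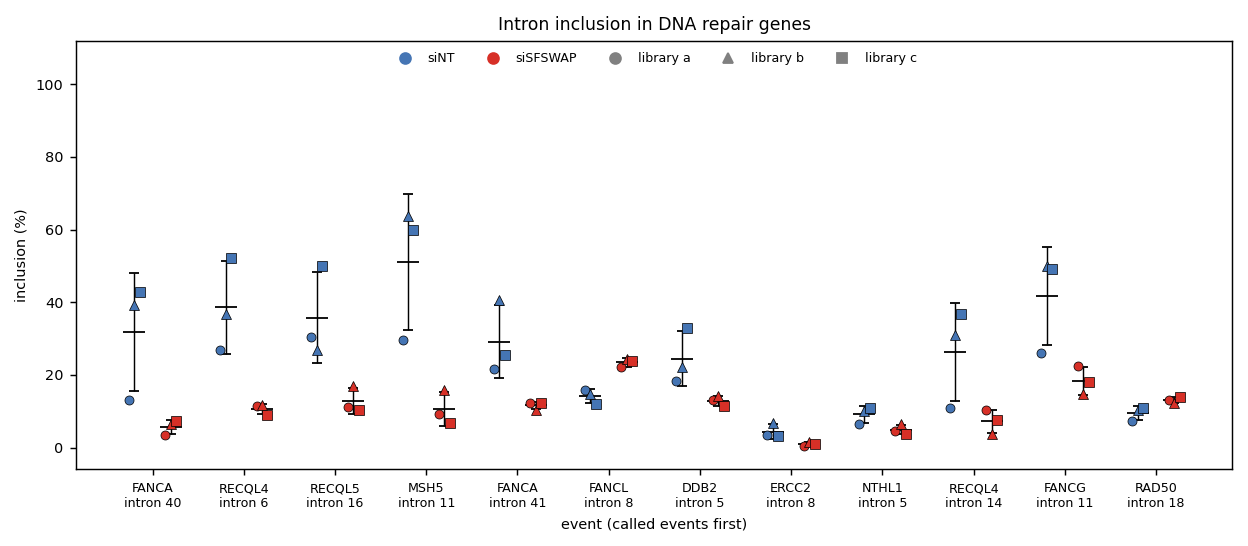
Inclusion in percent of 12 introns of the repair genes in the 3 siNT (blue) and 3 siSFSWAP (red) libraries, with the mean and SD of each group. The 4 called introns at the left fell by 22.9 to 40.5 points, and FANCL intron 8 and RAD50 intron 18 lay higher in siSFSWAP without a call.

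Some introns lay higher in siSFSWAP, though none was called. FANCL, the ubiquitin ligase subunit of the core complex, had 4 of 7 tested introns higher. Its intron 8, of 2206 nt, was at 15.8%, 14.9% and 12.1% in siNT and at 22.1%, 24.5% and 23.9% in siSFSWAP, with no overlap and little spread. The difference of 9.24 points had an adjusted p of 0.114. RAD50, the coiled-coil ATPase of the break-sensing MRE11 complex, had intron 18 at 9.55% ± 1.96 in siNT and 13.2% ± 0.856 in siSFSWAP (SD, n = 3, adjusted p = 0.212). The 20 introns of nucleotide excision repair genes had a median change of −0.634 points and the 11 of base excision repair genes −2.84 points, with no call in either group. In DDB2 intron 5 was at 24.5% and 12.9%, in NTHL1 intron 5 at 9.19% and 4.98%, and in ERCC2 intron 8 at 4.42% and 1.05%, each lower without overlap between the groups and with an adjusted p of 0.280 to 0.291. RECQL4 intron 14 had the same pattern at 26.2% and 7.22% (adjusted p = 0.179). The DNA glycosylase gene MUTYH, which was picked after its values were seen, had intron 10 at 14.7%, 59.7% and 73.6% in siNT and at 4.96%, 13.4% and 7.88% in siSFSWAP. The groups did not overlap, siNT a was close to siSFSWAP, and with 21.3 reads per library the adjusted p was 0.218.

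Among tested introns averaging 50 reads or more, the highest siNT inclusion per gene was taken for up to 3 genes per pathway. Those given next were not called. DDB1, the partner of DDB2, had a 105-nt form of intron 13 included at 98.3% in siNT and 98.8% in siSFSWAP. That form is outside the reference transcript and had 8 skipping reads in all. The 97-nt reference form of intron 13 was at 4.10% and 5.03%. A high value of such a form sets boundary reads against a rarely used junction. It does not mean that most transcripts keep the intron. In XRCC6, which encodes the Ku70 end-binding protein, a listed 113-nt intron was at 99.8% and 99.9%. It lies in the coding span and overlaps no intron of the reference (MANE) transcript, so it is exon sequence there. Only 11 reads in all skipped it. The RECQL4 277-nt form of intron 14 was at 93.0% and 87.8% (adjusted p = 0.691), while the 79-nt reference form was at 26.2% and 7.22%. FANCL intron 9 was at 19.8% and 20.9%, and BRCA2 intron 23 at 7.11% and 10.05%. An 86-nt form of FANCA intron 10, outside the reference transcript, was at 49.5% and 33.2%. DDB2 intron 6 was at 38.3% and 28.4%, and ERCC2 intron 3 at 27.6% and 16.3%, with overlapping groups in all 3. RECQL, a further RecQ helicase, had intron 9 at 1.02% and 1.12%. With fewer reads, a 227-nt form of OGG1 intron 6 was at 96.3% and 92.6% and a 169-nt form of ERCC3 intron 5 at 84.9% and 68.5%. Both forms are outside the reference transcript, were not called and were chosen after their values were seen. The 187-nt reference form of ERCC3 intron 5 was at 24.1% and 17.5%.

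Exon inclusion moved more often upwards. Of 417 tested entries for 364 exons in 47 repair genes, 11 entries for 10 exons in 7 genes rose and 2 entries in 2 genes fell. Among all 48100 tested entries, 1.44% were called higher and 0.655% lower, 2.09% in either direction. The groups did not overlap for 65 member entries in the higher direction, or 15.6% of them against 14.3% of all entries, and for 41 in the lower direction, or 9.83% against 9.06%. The median change was 0.663 points in the repair genes and 0.295 over all entries. By adjusted p alone 17 entries were higher and 8 lower, where 5.42% of all entries passed. Without siNT library a, 33 of 344 member entries were called higher and 1 lower, against 3.75% and 0.878% of all entries. Without siSFSWAP library a 3 were called higher, without siSFSWAP library c 5 and without siNT library b 7. Without siSFSWAP library c none was called lower, and without any 1 siNT library 1 was.

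ERCC1 gave the call that held best. The protein pairs with ERCC4 to cut the damaged strand on the 5′ side of a lesion. Exon 8 of 10, a 72-nt exon that keeps the reading frame, was included at 59.4%, 30.1% and 36.7% in siNT and at 78.7%, 78.3% and 74.5% in siSFSWAP. The siSFSWAP libraries were close together and above all siNT libraries. The siNT mean was 42.1% ± 15.4 and the siSFSWAP mean 77.2% ± 2.33 (n = 3, ± SD), and the rise of 35.1 points (adjusted p = 0.000847) rested on a mean of 194.5 reads per library and was called without each library in turn, with an adjusted p of up to 0.0495. A form of the same exon that starts upstream and runs for 437 nt, which the annotation does not hold, rose from 17.1% to 52.7% (adjusted p = 0.000537), with the same skipping reads as the 72-nt form. A further entry of exon 8, with another upstream exon, rose by 39.3 points (adjusted p = 0.00744) and was lost without siNT library b or siSFSWAP library a or c (adjusted p of up to 0.0786). The other 2 tested entries of exon 8, with other flanking exons, differed by −6.34 and 1.39 points with adjusted p of 0.149 and 0.690. The neighbours, exons 7 and 9, passed the adjusted p under the size threshold, with differences of 16.7 and 18.6 points (adjusted p = 0.0133 and 0.0172). These entries share junctions and are not independent readings. No ERCC1 intron was tested.

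In ERCC2, the helicase of the TFIIH complex that opens DNA around a lesion, exon 5 of 23 was included at 92.9%, 67.6% and 47.1% in siNT and at 100% in each siSFSWAP library. No skipping read was found among 109 reads of the siSFSWAP libraries. That allows skipping in up to 2.75% of reads by counting error alone, since the reads carry no molecular identifiers. The limit is on reads not scaled by effective length, so it is not on the scale of inclusion. Inclusion rose by 30.8 points (adjusted p = 0.0424). This call was lost when any library but siNT a was left out (adjusted p of up to 0.249), and an entry of the same exon with a nearer downstream exon and more reads was at 91.7% and 100% (adjusted p = 0.166). Exon 11 of ERCC2 was at 78.0% and 94.7%, with no overlap between groups but no call (adjusted p = 0.108).

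FANCA exon 40 of 43 lies directly upstream of the called intron 40 and is 76 nt long. It was included at 85.4%, 68.6% and 71.3% in siNT and at 98.5%, 96.8% and 97.7% in siSFSWAP. The groups did not overlap, and inclusion rose by 22.6 points (adjusted p = 0.0111). A 178-nt form of the exon with an upstream start, not in the annotation, rose by 36.0 points (adjusted p = 0.0105) with the same skipping reads. Both calls were lost without siNT library b, siSFSWAP library a or siSFSWAP library c, where the adjusted p reached 0.108 and 0.114. Intron and exon share the junction between exons 40 and 41, so the 2 changes are not independent readings. ZNF276 overlaps the exon on the opposite strand.

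The same pairing of a less retained intron and a more included exon was seen in RECQL4 and MSH5. In RECQL4 the 34-nt form of exon 6, next to the called intron 6, was included at 70.3%, 64.5% and 45.02% in siNT and at 100%, 95.6% and 89.1% in siSFSWAP, a rise of 34.9 points (adjusted p = 0.00929). It was lost without siSFSWAP library a or b, where the adjusted p reached 0.0975. The 127-nt annotated form of exon 6 was higher by 11.9 points (adjusted p = 0.0170), under the size threshold. A 120-nt form of RECQL4 exon 13, not in the annotation, rose from 70.2% ± 15.0 to 98.1% ± 2.13 (SD, n = 3, adjusted p = 0.0037). Its call was lost without siSFSWAP library a at an adjusted p of 0.0775. The 142-nt annotated form, with the same skipping reads, was higher by 18.1 points (adjusted p = 0.00568), under the size threshold. Both forms share their donor site, and reads across that junction can count for each. MSH5 exon 11 of 25, which ends where the called intron 11 begins, was included at 66.7%, 50% and 69.2% in siNT and at 100% in all siSFSWAP libraries. The readthrough gene MSH5-SAPCD1 overlaps it. There was no skipping read among 81 siSFSWAP reads, which allows skipping in up to 3.70% of reads, again not scaled by effective length. The rise of 38.0 points had an adjusted p of 0.00917. This entry had 21.3 reads per library, its skipping reads joined exons 5868 and 4725 nt away, and the call was lost without siNT library a or siSFSWAP library a or c (adjusted p of up to 0.0576). An entry of exon 11 with the neighbouring downstream exon had 1 skipping read in all and was not tested.

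RAD51D and XRCC3 act in homologous recombination. RAD51D exon 5 of 10, at chr17:35106988-35107122 and 135 nt long, was included at 30.8%, 42.9% and 35.3% in siNT and at 62.2%, 76.5% and 88.2% in siSFSWAP against a skipping junction from an exon 11988 nt upstream. The rise of 39.3 points had an adjusted p of 0.0234, and the groups did not overlap. Against the neighbouring upstream exon, 243 nt away, the same exon was at 78.1% and 87.5% (adjusted p = 0.517). It overlaps exons of a further annotated gene on the same strand, and the call was lost without siNT library a or any siSFSWAP library (adjusted p of up to 0.135). In XRCC3 a 169-nt exon at chr14:103706207-103706375, annotated but outside the reference transcript, was included at 4.35%, 1.89% and 0% in siNT and at 19.4%, 25.0% and 24.1% in siSFSWAP. Inclusion was low in one group and clearly present in the other, with a rise of 20.8 points (adjusted p = 0.00666). Without siNT library c or siSFSWAP library b the change was just under the size threshold, at the lowest 19.7 points. The exon overlaps an exon of KLC1 on the opposite strand.

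FANCL and WRN held the exons that fell. FANCL exon 4 of 14 has the neighbouring acceptors printed above. Its 55-nt form, which shifts the reading frame, was included at 96.3%, 100% and 100% in siNT and at 63.4%, 72.0% and 48.3% in siSFSWAP. The siNT libraries held 1, 0 and 0 reads that skipped the exon and the siSFSWAP libraries 10, 4 and 11. Inclusion of the 55-nt form fell by 37.5 points (adjusted p = 0.00595), a call lost only without siSFSWAP library c (adjusted p = 0.0531). The 57-nt reference form, counted against the same skipping reads, went from 99.7% to 87.4%, 12.3 points lower (adjusted p = 0.00554) and so under the size threshold. Both forms share their donor site, and reads across that junction can count for each. The values thus show more skipping of exon 4 and do not give the share of transcripts with the 55-nt form. WRN, the helicase and exonuclease lost in Werner syndrome, had exon 6 of 35 lower. Its 52-nt form, which the annotation does not hold, was included at 91.8%, 89.5% and 93.2% in siNT. In siSFSWAP this form was at 79.2%, 47.9% and 62.1%, and it fell by 28.4 points (adjusted p = 0.0326). It was called without siSFSWAP library a but not without any of the other 5 (adjusted p of up to 0.189). The 150-nt reference form, counted against the same skipping reads, was lower by 18.5 points (adjusted p = 0.0283), under the size threshold. Both forms share their acceptor site, so the values show more skipping of exon 6 and not the share of the 52-nt form. WRN exon 14 was lower by 10.1 points (adjusted p = 0.0476).

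**Figure D2:**
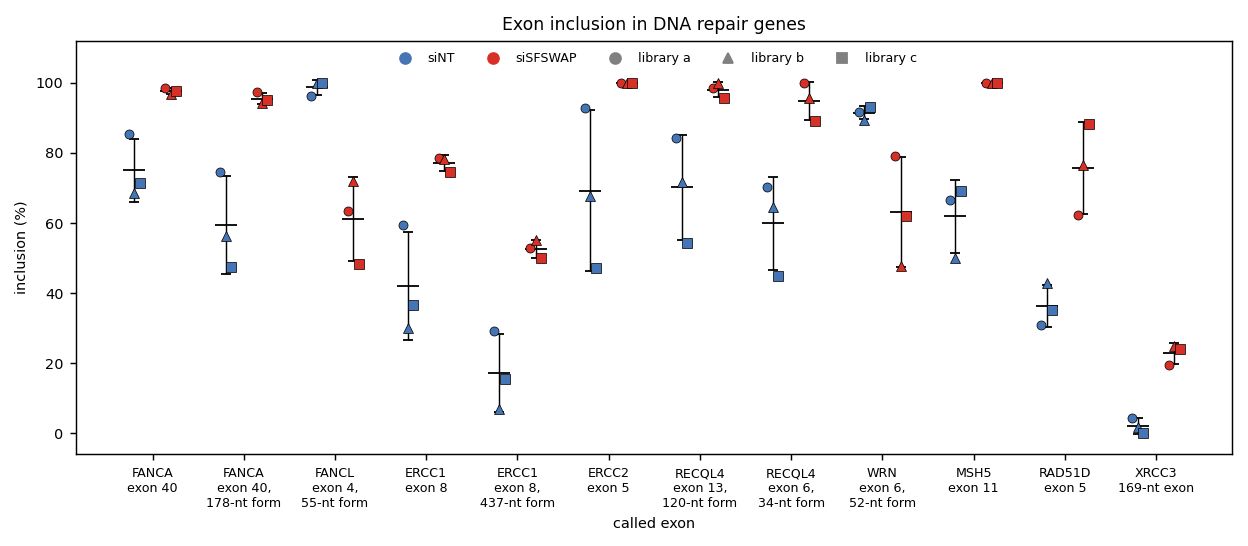
Inclusion in percent of the 12 called exon forms of the repair genes in the 3 siNT (blue) and 3 siSFSWAP (red) libraries, with the mean and SD of each group. The groups do not overlap in any of them, 10 lie higher in siSFSWAP and the FANCL and WRN forms lie lower.

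Exons past the adjusted p but under the size threshold went in both directions. FANCI, the partner of FANCD2, had the 185-nt form of exon 32 at 93.3% in siNT and 78.2% in siSFSWAP (adjusted p = 0.0457), and the 188-nt reference form was at 97.2% and 89.9% (adjusted p = 0.0586). A 98-nt form of BRCA1 exon 9, in the gene for the ubiquitin ligase that directs resection, was at 100% in all siNT libraries and at 91.0%, 100% and 67.5% in siSFSWAP (adjusted p = 0.0297), so that the groups overlapped. In XPC, which senses distorted duplexes, a 155-nt exon that is not annotated was at 10.9% ± 2.96 and 24.8% ± 2.20 (SD, n = 3, adjusted p = 0.0485). XRCC6 had a 10-nt form of exon 4 at 87.7% and 99.4% (adjusted p = 0.0394).

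FANCG had large exon differences with no call. Its MANE exon 9 of 67 nt, chosen after its values were seen, was at 82.1%, 56.4% and 29.5% in siNT and at 96.7%, 90.5% and 86.0% in siSFSWAP (adjusted p = 0.0819). A 378-nt FANCG form that spans exons 6 and 7 was at 77.7% and 98.2%, a difference of 20.5 points (adjusted p = 0.0880). Leaving out 1 library at a time gave differences of 15.3 to 28.5 points (adjusted p of up to 0.318), the largest without siNT library a. For the base excision genes, 38 of 44 entries (86.4%) were higher in siSFSWAP, where 57.5% of all tested entries were, with a median of 2.95 points, and none was called. Exon 3 of NTHL1, a glycosylase for oxidised pyrimidines, and exon 3 of MUTYH were also looked at after their values were seen. NTHL1 exon 3 was at 93.0%, 81.9% and 71.2% in siNT and at 95.4%, 98.7% and 91.7% in siSFSWAP, so that siNT a overlapped siSFSWAP (adjusted p = 0.134). The 149-nt form of MUTYH exon 3 was at 74.4% and 96.1% without overlap (adjusted p = 0.134). The meiotic gene MSH5 had 10 of 10 entries higher, with a median of 12.1 points. Its exon 2 was at 70.3% and 82.7% (adjusted p = 0.447). In the damage kinase gene ATR exon 6 was at 83.9% and 94.3% (adjusted p = 0.196), in LIG1 an 82-nt form of exon 17 at 79.6% and 88.2% (adjusted p = 0.549), and in RECQL a 46-nt form of exon 1 at 87.8% and 77.5% (adjusted p = 0.346).

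By pathway the exon entries differed in their medians. Of the 145 of excision repair genes 75.2% were higher, against 61.6% of all member entries and 57.5% of the whole table, with 4 called higher and none lower, and a median of 1.71 points. The 115 of Fanconi genes had a median of 0.624 points with 2 called higher and 1 lower, the 116 of recombination genes 0.163 points with 3 and none, and the 41 of helicases −0.282 points with 2 and 1. The helicases split by gene, since the RECQL4 calls were higher and the WRN call lower. The 39 entries of the break-sensing genes ATM, ATR, MRE11, RAD50 and NBN had a median of −0.759 points, with 69.2% lower and no call. For comparison, 109 other repair genes outside the list gave 8 higher and 4 lower calls among 571 exon entries, and 4 lower and no higher calls among 156 introns.

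**Figure D3:**
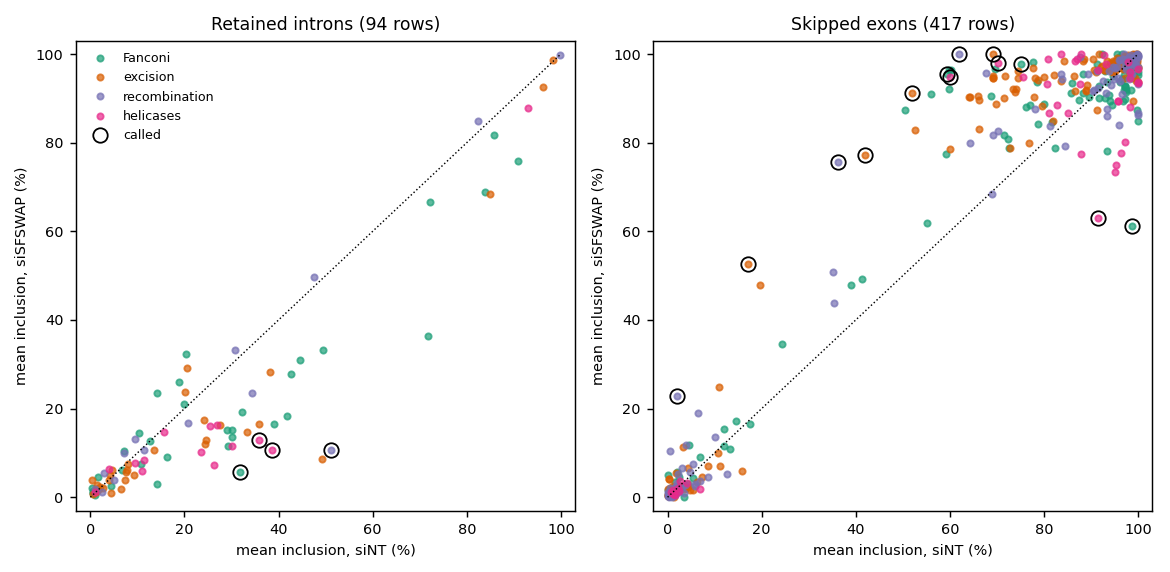
Mean inclusion in percent in siNT (horizontal axis) and siSFSWAP (vertical axis) of the 94 tested introns and the 417 tested exon entries of the repair genes, coloured by pathway, with called events circled. Most introns of intermediate inclusion in siNT lie under the diagonal, and the called exons lie mostly above it.

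The genes whose exons moved up were mainly short and rich in GC. With 1 entry for each stretch of sequence, 238 exons in 47 genes remained, of which 141 were higher in siSFSWAP and 97 lower. In the 33 genes with at least 3 such exons, the median exon change and the span of the gene had a Spearman rho of −0.754 (Pearson r −0.546), and the median change and the median GC content of the exons a rho of 0.676 (Pearson r 0.575). These relations are across genes that share the same 6 libraries and describe the members only. Of 17 genes spanning up to 73.3 kb, 15 had a median above 0, and of 16 longer genes 8 did. The same split over all genes gave 65.3% of 2832 shorter and 49.5% of 1554 longer genes with a median above 0. FANCG, at 6.17 kb, had the highest median, 20.5 points over 5 exons, followed by MSH5 at 12.1 points and RECQL4 at 11.9 points. ERCC8, the Cockayne syndrome adaptor, was at the other end with −4.11 points over 3 exons, none of them in the reference transcript. FANCC, with 328 kb the longest of these genes, had −3.61 points, and NBN, the NBS1 subunit of the MRE11 complex, −2.10 points with 5 of 5 exons lower. Over 4386 genes of the whole table the rho with span was −0.265. GC content stood in the same relation to single events. For the 364 exons of the repair genes rho between GC content and change was 0.505, against 0.291 over 43287 exons of all genes, and for their 94 introns it was −0.441, against −0.341 over 10155 introns. Among events between 20 and 80% in siNT the order was the other way, with a rho of 0.234 for 48 member exons against 0.453 for 5399 of all exons, and of −0.272 for 36 member introns against −0.404 for 1843 of all introns. In the 27 genes with both, the median intron and median exon changes had a rho of −0.458, where neighbouring events share junction reads.

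**Figure D4:**
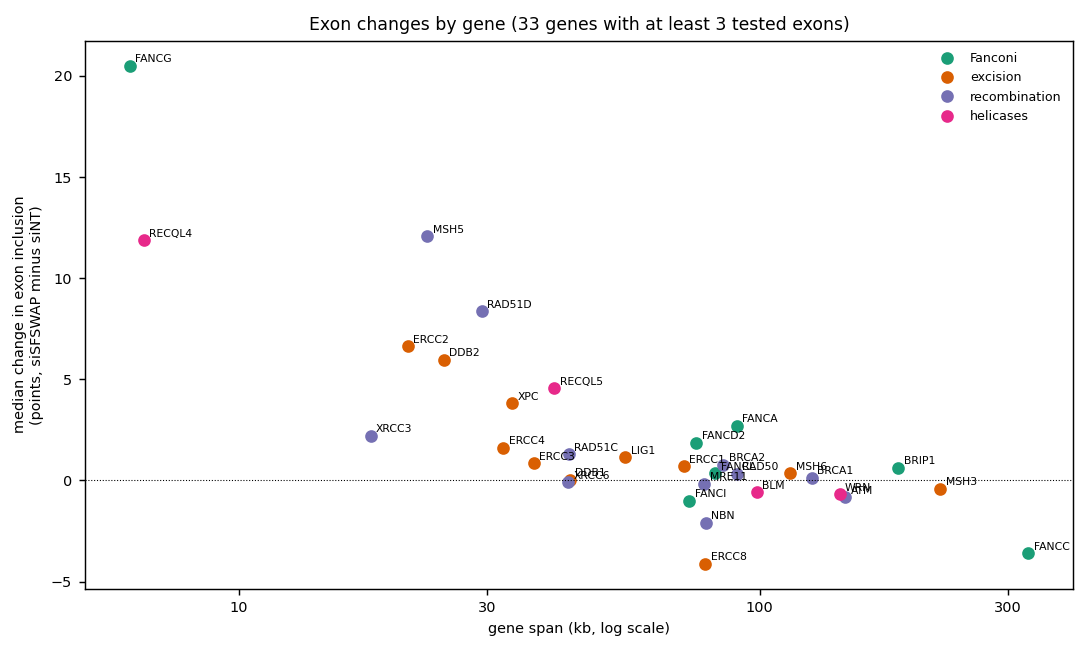
Median change in exon inclusion (points, siSFSWAP minus siNT) against the span of the gene in kb on a log axis, for the 33 repair genes with at least 3 tested exons that do not overlap. FANCG, RECQL4 and MSH5 stand at the top left, and the 16 genes above 73.3 kb lie between −4.11 and 2.71 points.

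Gene level was read here from the sum of exon junction reads per gene, in CPM, on which both splicing and RNA amount act. In such bulk samples fewer cells of a type and less RNA per cell cannot be told apart. Of the 51 repair genes that reached 20 reads on average, 12 were higher in siSFSWAP and 2 lower by limma, while 14.7% of 10780 genes were higher and 15.6% lower. The median log2 difference was 0.06 in the repair genes and −0.005 over all genes. Without siNT library a 17 repair genes were higher and 5 lower, where 23.2% and 24.4% of 10602 genes were.

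DDB2, which binds UV lesions, had 48.5, 22.1 and 21.2 CPM in siNT and 88.2, 60.2 and 73.7 in siSFSWAP. The groups did not overlap although siNT a was high, and the sum rose 1.35 on the log2 scale (SE 0.26, adjusted p = 0.00325). XRCC2, which acts in homologous recombination, had 6.43, 5.79 and 4.88 in siNT and 11.6, 11.1 and 12.8 in siSFSWAP (log2 difference 1.00, SE 0.15, adjusted p = 0.0011). LIG1, the ligase that seals nicks in replication and excision repair, went from 184 ± 70.7 to 344 ± 33.9 (SD, n = 3, adjusted p = 0.00414), with siNT a at 265. MSH5, MUTYH, RECQL5, the single-strand break scaffold XRCC1, FANCG, the core complex subunit FANCE, RECQL4, FANCA and FANCL were higher, after DDB2, XRCC2 and LIG1, by 0.83 to 0.29 on the log2 scale. In 5 of these, MSH5, RECQL5, RECQL4, FANCA and FANCL, exon or intron calls were made as well. RAD51C, of the same pathway as XRCC2, fell by 0.53 on the log2 scale, from 126, 146 and 144 CPM in siNT to 98.0, 94.1 and 95.5 in siSFSWAP (adjusted p = 0.00178). ERCC3, the other helicase of TFIIH, fell by 0.38 on the log2 scale (adjusted p = 0.0108). The calls of 3 genes were lost in part of the fits that left out 1 library: FANCL without any library but siNT a (adjusted p of up to 0.123), FANCE without siNT library b or c or siSFSWAP library a or c (up to 0.0876), and ERCC3 without siNT library b or siSFSWAP library b (up to 0.0615). ERCC1, with the firmest exon call, was at 145 ± 3.51 and 155 ± 10.2 (SD, n = 3, adjusted p = 0.423).

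**Figure D5:**
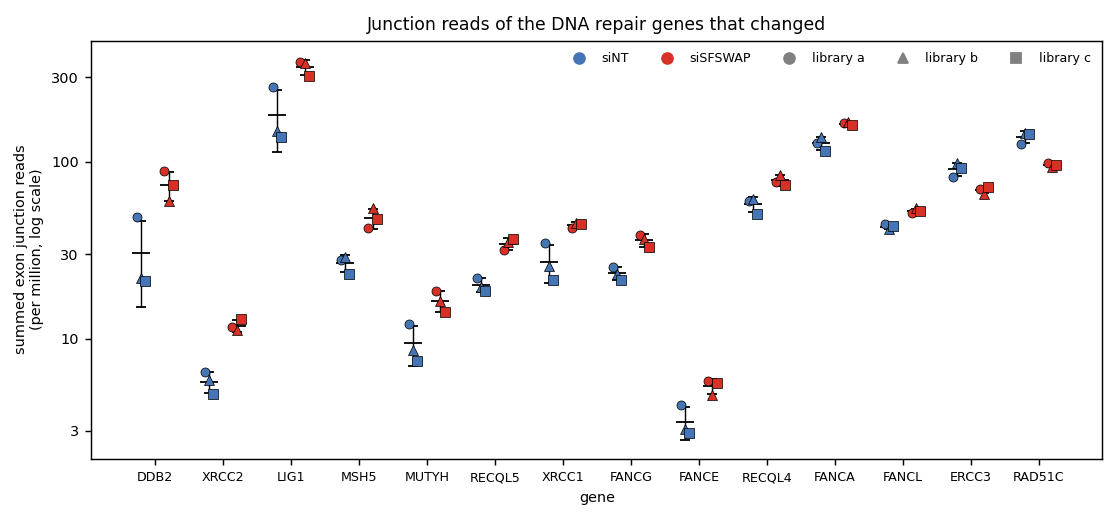
Summed exon junction reads in CPM, on a log axis, of the 14 repair genes whose sums changed, by library, with the mean and SD of the 3 siNT (blue) and 3 siSFSWAP (red) libraries. The groups do not overlap in any of the 14, DDB2 and XRCC2 show the largest rises, and ERCC3 and RAD51C lie lower in siSFSWAP.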

How the data were processed

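Per the labels, polyadenylated RNA of 6 cultures was sequenced. The submitters' processing notes name cutadapt 1.9.1 for trimming, STAR 2.7 and GRCh38, and the authors counted events with rMATS. The deposited tables hold, in cells that list 3 libraries each, whole-number junction counts without normalisation, with effective lengths in nucleotides (other units). Their p-value, FDR, inclusion level and inclusion difference columns hold the authors' own comparison and were not used. The first group was taken as siNT from the stated sign of that difference, and the loss of SFSWAP reads served as a check. Events needed a mean of 20 reads, 5 of each form and reads in 2 libraries per group. The quasi-binomial F test used Pearson dispersions moderated with limma 3.58.1 in R 4.3.3, with Benjamini-Hochberg adjustment over all tested events of a table. Gene sums took 1 entry per exon, as CPM, by limma on log2 values with a pseudocount of 0.5, in place of the planned edgeR test, as the values could not be entered as count columns. Named events were all called ones. Per pathway and table the 3 uncalled ones with the largest change were added, 1 per gene, given 50 reads and no overlap between groups. The 3 tested introns per pathway with the highest siNT inclusion among those with 50 reads were also named, 1 per gene. Members and lists were chosen with earlier results of these data known. The tests were also run on simulated data, whose outcome is not given here. For events only rises were planted, with a fixed spread between libraries that was not fitted to these data. The simulation thus lends the calls no support. Gene models were those of GENCODE release 44 on GRCh38.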

Additional observations from a re-analysis of the deposited data

How the results depend on the processing

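No paired analysis was possible because the columns carry no replicate numbers, although the labels number the replicates 1 to 3 in both groups, so that any pairing of the libraries is unknown. The counts of called member events depended on the setting, in the order introns lower, exons higher and exons lower, where 4, 11 and 2 were called. With a mean of at least 50 reads they were 2, 5 and 0, with no filter on low reads 3, 5 and 1, and with limma on log2 odds 0, 1 and 0. A change threshold of 0.1 gave 5, 17 and 8. Leaving out each library in turn gave 0 to 12 introns lower, 3 to 33 exons higher, 0 to 3 exons lower and 11 to 22 changed gene sums. No member intron was called higher under any of these, and removing the dispersion floor changed no count. Counting each exon once, added after the data were seen, gave 10 higher and 2 lower. Gene sums gave 14 with no filter and with median-of-ratios scaling, also added later. Of the named events no called one turned its direction, while 69 calls were lost and 10 gained over all alternatives. The planned DESeq2 scaling was not run, since the cells could not be entered as counts. Events near 20 reads per library, such as those of MUTYH and MSH5, limit what can be called. The cause of the difference between siNT library a and the other siNT libraries was not tested.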
